A study of Xenopus tropicalis with 16 samples.

Results

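Control ectoderm of Xenopus tropicalis was followed from the neurula to the tailbud stage. The material was animal caps, the pieces of prospective ectoderm that are cut from the top of a blastula and that form embryonic epidermis in culture. The comparison used 5 of the 16 RNA-seq libraries of the series, namely the control morpholino (CoMo) libraries of Nieuwkoop and Faber stage NF24 (tailbud, 3 libraries) and of stage NF16 (neurula, 2 libraries). They were picked by the stage and morpholino in their labels. A morpholino is an antisense oligomer, and CoMo is a standard one injected as a control, so these explants come from injected and not from untouched embryos. Each library pooled explants that were staged by sibling embryos, and the labels call the libraries biological replicates. Of the remaining libraries, 3 are CoMo explants of stage NF10 (gastrula) and the others carry the Suv4-20H1/2 morpholinos, which target the mRNAs of a pair of enzymes that methylate histone H4. The NF16 and NF24 knockdown libraries, 5 in all, served here as a second set of explants that passed through the same stages, though the study notes that its tailbud knockdown explants fell apart into single cells. It adds that RNA profiles of these replicates scattered in a principal component analysis. This made differential expression hard to assess, and the study focused on the neurula stage.

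The embryonic skin of Xenopus is a mucociliary epithelium. Its outer layer holds mucus-secreting goblet cells, and multiciliated cells, ionocytes and small secretory cells move into it from the inner layer during neurula and tailbud stages. Multiciliated cells multiply their basal bodies while they move outwards and carry tufts of beating cilia by the tailbud stage. The gene identifiers in the files belong to an older Xenbase annotation, and 0 of the 14373 could be matched to a gene symbol. The files do not pair them with names, so the tissue label could not be checked against epidermal markers, and no gene could be given a function. For the same reason only 2 identifiers that rose and 2 that fell are printed, and the other genes are described by their number and their levels.

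The libraries held 14218600 and 40286023 assigned fragments at NF16, and between 18054098 and 20715259 at NF24. The summed depth of the stages was close, at 54504623 fragments for NF16 and 58499886 for NF24. Mapped fragments outside annotated genes made up 30.8% ± 0.134 at NF16 (SD, n = 2) and 42.1% ± 3.63 at NF24 (SD, n = 3), with no overlap between the stages. Permuting the libraries exactly gave a two-sided p of 0.1, and no smaller value can be reached with 3 libraries against 2. The labels give no batch within the series, so a technical difference between the stages cannot be told apart from stage. Fragments on the strand opposite to genes were 1.21% ± 0.0178 of stranded counts at NF16 (SD, n = 2) and 2.74% ± 1.18 at NF24 (SD, n = 3; exact permutation p 0.2). NF24 replicate 3 had the highest values of all 5 libraries, with 45.8% outside genes, 4.05% on the opposite strand and 34.0% unmapped. The part of these shares in the results below was not tested.

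A large part of the transcriptome changed between neurula and tailbud. Of 12710 genes tested, 3577 (28.1%) differed between the stages at an adjusted p under 0.05 in the quasi-likelihood test of edgeR. Levels were higher at NF24 for 1742 genes (13.7%) and lower for 1835 genes (14.4%). The stages did not overlap for 3574 of the 3577 genes, while 7419 of all tested genes (58.4%) did not overlap, 3736 of them higher (29.4%) and 3683 lower (29%). The median log2 change was 1.55 among the higher genes and -1.35 among the lower genes. These are differences of relative abundance in whole explants, where fewer cells of a type and less RNA per cell cannot be told apart.

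The split between directions depended on how libraries were scaled. With TMM factors, which scale by the bulk of genes, the median log2 change over all tested genes was 0.06. Scaling by total counts alone moved that median to 0.36 and gave 2739 higher and 1126 lower genes. DESeq2, with its own test and size factors, called 4637 genes, 2358 higher and 2279 lower. With size factors of that kind (RLE) in the edgeR test, 3562 genes were called, 1720 higher and 1842 lower. Both NF16 libraries mattered for the count. Without NF16 replicate 1, 977 genes were called, and without NF16 replicate 2, 446 genes, with the spread taken from the NF24 libraries because a single NF16 library was left. Without NF24 replicate 2 the count was 2065, and with all 6 groups of the series in one fit it was 1883.

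**Figure D1:**
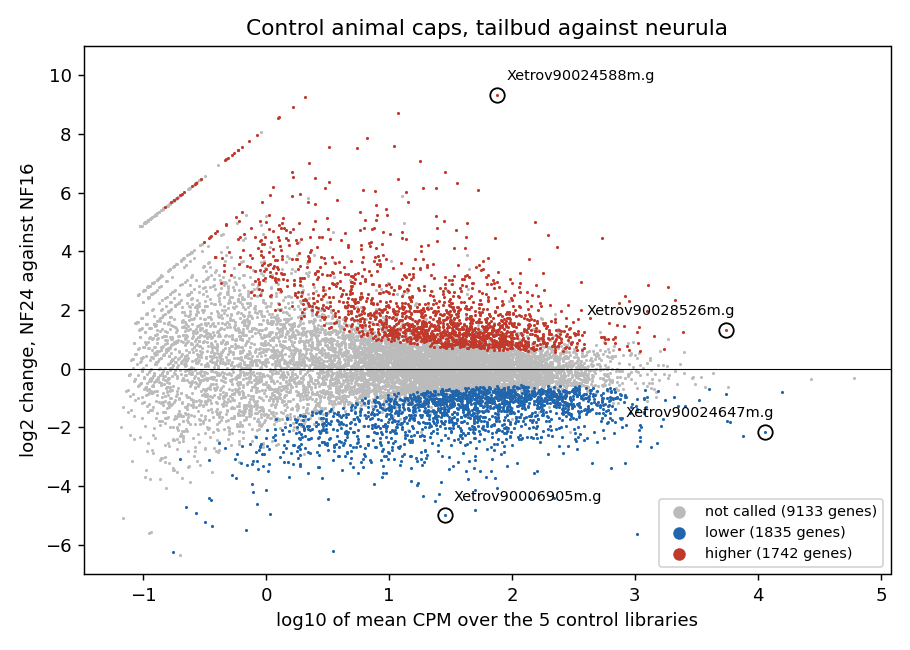
Log2 change from NF16 to NF24 (y axis) against the log10 of the mean CPM (x axis) for the 12710 genes tested in 5 control libraries, with genes called by edgeR in red (higher at NF24) and blue (lower). Circles mark the 4 printed identifiers, and the largest rises reach 9.34 on the log2 scale while most falls stay above -5.

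Rises were larger than falls. A log2 change of at least 3, an 8-fold change, was seen for 318 of the higher genes (18.3%) and for 104 of the lower genes (5.67%). Beyond a log2 change of 5 there were 76 higher and 6 lower genes. The excess of large rises was also present under scaling by total counts, at 428 against 62 genes, and in DESeq2, at 360 against 105. With NF16 replicate 1 or replicate 2 left out, far fewer genes were called, and the counts of large rises and large falls were close. As shares of the genes called in each direction, large changes were still more frequent among rises. A single NF16 library was left in these fits. These are counts among called genes, and no test of the difference was made.

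More of the higher genes than of the lower genes had a low level at the stage where they were lower. Mean levels were under 1 CPM, that is under 1 count in 1e+06 scaled fragments, at NF16 for 316 of the 1742 higher genes, and 79 of these passed 5 CPM at NF24. In the other direction, 118 of the 1835 lower genes were under 1 CPM at NF24, and 14 of these had been above 5 CPM at NF16. More called genes thus rose from a low level than fell to one. The share of all tested genes under 1 CPM at each stage was not counted. A low level at the base stage also makes a log2 change large, and the part of this in the larger rises was not tested.

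Genes with reads at only 1 of the stages were few. There were 99 genes with no read in either NF16 library and at least 1 read in each NF24 library, and 40 genes with the reverse pattern. There were 97 genes with no read in either NF16 library and at least 10 reads over the NF24 libraries, and 5 genes with the reverse pattern. Of the former 97 genes 27 were called, and of the latter 5 genes 1. These genes were picked by their reads in the libraries that gave the calls. Each group could be called in only 1 direction, so these counts test nothing. Of all tested genes 28.1% were called in either direction, 13.7% higher and 14.4% lower. When at least 1 CPM was required in each library of the other stage, 4 genes had no reads at NF16 and 0 genes had no reads at NF24. The most fragments seen at NF24 for a gene without any at NF16 was 226, and in the reverse case it was 17. Genes without a single read at a stage were therefore weakly expressed at the other stage as well.

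The 4 genes that came on from 0 reads had low tailbud levels. Mean NF24 levels were 2.35 to 3.89 CPM. The floor was set at 3 counts in each NF16 library, 0.181 CPM on average. Against it, NF24 levels of the 4 genes were at least 12.99-fold to at least 21.5-fold higher. Adjusted p-values in edgeR were between 0.00638 and 0.0128. The genes were picked by their reads in these same libraries, so these folds and p-values describe them and test nothing. In each of the 4 genes NF24 replicate 3 was the lowest of the NF24 libraries, between 1.13 and 1.51 CPM. At NF10 they reached at most 0.175 CPM. Requiring reads to be absent from only 1 NF16 library gave 9 such genes without replicate 1 and 18 without replicate 2. In the NF24 knockdown libraries they stood between 0.178 and 2.73 CPM, and in the NF16 knockdown libraries at 0.856 CPM or less.

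Xetrov90024588m.g had the largest rise of the genes that met the rule for naming. It had 2 and 7 counts in the NF16 libraries, or 0.174 and 0.237 CPM. At NF24 it stood at 83.4 CPM in replicate 1, 332 CPM in replicate 2 and 7.55 CPM in replicate 3. All NF24 libraries were thus far above both NF16 libraries, but they differed widely from each other, with replicate 3 lowest. The log2 change was 9.34 (approximate SE 1.90, adjusted p 0.0126 by edgeR). Summed over libraries, 7793 counts stood against 9. Scaled by the summed depth of the stages, without TMM factors, the ratio was 807, with a 95% interval of 425 to 1765 that covers counting error only. Without NF16 replicate 1 or 2 the adjusted p rose to 0.0991 and 0.118, and the log2 change was 7.74 without NF24 replicate 2. The gene was at 0.745 CPM or less in the NF10 controls. In the knockdown libraries it stood at 0.267 and 0.242 CPM at NF16 and at 9.37, 68.8 and 6.15 CPM at NF24, so replicate 2 was highest and replicate 3 lowest there too. Opposite-strand fragments numbered at most 8 in any library.

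Xetrov90028526m.g gained the most CPM, a measure that is not corrected for gene length. It stood at 3092 and 3499.5 CPM in the NF16 libraries. At NF24 the values were 8775, 9296 and 6267 CPM, all above NF16, with replicate 3 again lowest. The log2 change was 1.33 (approximate SE 0.25, adjusted p 0.00936 by edgeR). Without NF16 replicate 1 or 2 the adjusted p was 0.0768 and 0.0745. This gene had already come up before the neurula stage, since the NF10 controls held 10.7, 18.7 and 17.8 CPM. The knockdown libraries held 1451 and 958 CPM at NF16, both below the controls. At NF24 they held 6119, 6315 and 3733 CPM, where only 6315 CPM passed the lowest control value of 6267 CPM.

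Xetrov90006905m.g had the largest fall under the same rule. It stood at 71.7 and 83.8 CPM at NF16 and at 1.01, 1.61 and 4.64 CPM in NF24 replicates 1, 2 and 3. The stages were far apart, and replicate 3 was the NF24 library nearest to NF16. The log2 change was -4.99 (approximate SE 0.57, adjusted p 0.00311 by edgeR), and -5.86 without replicate 3. At NF10 the levels were 0.469, 1.88 and 0.898 CPM, so the gene was high at the neurula stage and low before and after it. In the knockdown it stood at 39.1 and 103 CPM at NF16, and at 9.92, 5.46 and 23.9 CPM at NF24.

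Xetrov90024647m.g lost the most CPM. It held 24425 and 24082 CPM in the NF16 libraries, which was 1.97% and 1.77% of their assigned fragments. At NF24 it had dropped to 3432, 5114 and 7718 CPM, with replicate 3 highest. The log2 change was -2.14 (approximate SE 0.32, adjusted p 0.00525 by edgeR). Without NF16 replicate 2 the adjusted p was 0.0529. The NF10 controls held 403, 453 and 98.6 CPM, below NF24 as well, so this gene too was highest at the neurula stage. Knockdown libraries held 22805 and 14188.5 CPM at NF16 and 4156, 6989 and 11921 CPM at NF24.

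**Figure D2:**
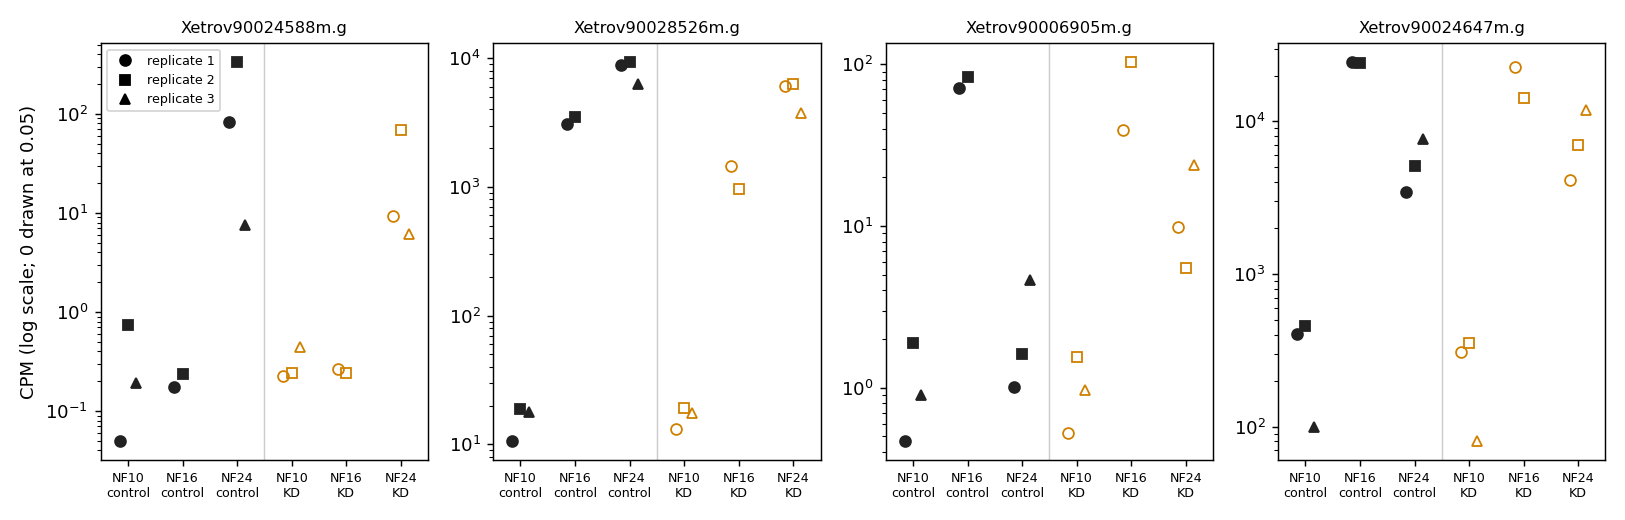
Level in CPM (log axis) of the 4 printed identifiers in all 16 libraries, control in black and knockdown (KD) in open orange symbols, with the shape giving the replicate number. A value of 0 is drawn at 0.05. Among controls, Xetrov90006905m.g and Xetrov90024647m.g are highest at NF16, and Xetrov90024588m.g spreads from 7.55 to 332 CPM among the NF24 controls.

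The strongest changes were then described as groups of 20. The 20 largest rises among the 1421 higher genes that met the rule spanned log2 changes of 5.25 to 9.34. Their median level was 0.271 CPM at NF16 and 19.7 CPM at NF24, and each of the 20 was under 1 CPM at NF10. NF24 levels spanned a median of 5.24-fold within a gene, over 3 libraries, against 1.20-fold over the 2 NF16 libraries. These ranges were taken with 0.5 CPM added, which holds down the range at such low NF16 levels. The NF24 and NF16 ranges are therefore not like measures. Replicate 3 was the lowest NF24 library in 17 of the 20. The strongest rises thus started from low levels at both earlier stages and differed widely between tailbud libraries. A low NF16 level itself makes a log2 rise large.

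The 20 largest falls among 1614 lower genes spanned log2 changes of -4.99 to -3.56. Their median level was 63.6 CPM at NF16 and 3.59 CPM at NF24. Libraries of NF24 differed by a median of 1.78-fold and those of NF16 by 1.32-fold, again over 3 and 2 libraries. Replicate 3 was the highest NF24 library in 17 of the 20. NF10 levels were scaled over all 16 libraries, and those of NF16 and NF24 over the 5 compared, so they are not like measures. NF10 levels ranged widely, from 0.139 to 1203 CPM with a median of 73.8 CPM, and 4 of the 20 genes were under 5 CPM at that stage. The strongest falls therefore included genes that were abundant in the gastrula explants and others that were not. All 20 rises and all 20 falls had the same direction in the knockdown libraries, where 18 and 16 of them also passed the threshold, beside 27.7% of all tested genes.

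Over all called genes, the levels at NF10 set the context. The higher genes had median levels of 10.9 CPM at NF10, 13.1 CPM at NF16 and 39.5 CPM at NF24. The lower genes had medians of 66.5, 81.7 and 30.2 CPM at these stages. For all tested genes the medians were 21.3, 20.8 and 21.6 CPM. Between the quartiles, NF10 levels ran from 0.641 to 46.9 CPM for the higher genes and from 20.2 to 174 CPM for the lower genes. At NF10 487 of the 1742 higher genes were under 1 CPM, as were 102 of the 1835 lower genes. The genes called lower were thus mostly well expressed at the gastrula stage, with an NF10 median above that of all tested genes. Abundant genes were called more often, and the part of this in these levels was not tested.

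How often a gene was called depended on its level. Among genes with a mean under 1 CPM over the 5 libraries 6.32% were called, with 82 higher and 37 lower. From 1 to 10 CPM the share was 25.3%, with 423 higher and 312 lower, and from 10 to 100 CPM it was 32.6%, with 982 higher and 936 lower. Above 100 CPM it was 39.5%, and there falls outnumbered rises, with 550 lower and 255 higher genes. This excess of falls among abundant genes turned round with scaling by total counts, which gave 345 lower and 462 higher genes in that class. Among called genes the median log2 change shrank with level, from 4.44 to 1.15 for higher genes and from -3.15 to -1.11 for lower genes. With few counts only a large change can pass the threshold. These medians therefore do not show how the changes of all genes vary with level.

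The lower genes made up much of the neurula libraries. They held 39.0% and 38.4% of the assigned fragments in the NF16 libraries, and 18.0%, 18.3% and 20.2% in NF24 replicates 1, 2 and 3. The higher genes held 5.42% and 5.35% at NF16, and their NF24 shares were 17.4%, 17.5% and 15.5%. The sets were chosen on these libraries, so this describes them and tests nothing. The lower genes also held a large share of the NF10 controls, at 37.8%, 31.9% and 31.1%. The higher genes held 6.39%, 7.43% and 8.03% there. In knockdown libraries, which did not choose the sets, the lower genes held 34.2% and 43.0% at NF16 and between 17.7% and 23.3% at NF24. The higher genes held 6.24% and 4.56% there at NF16 and between 13.2% and 17.8% at NF24.

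**Figure D3:**
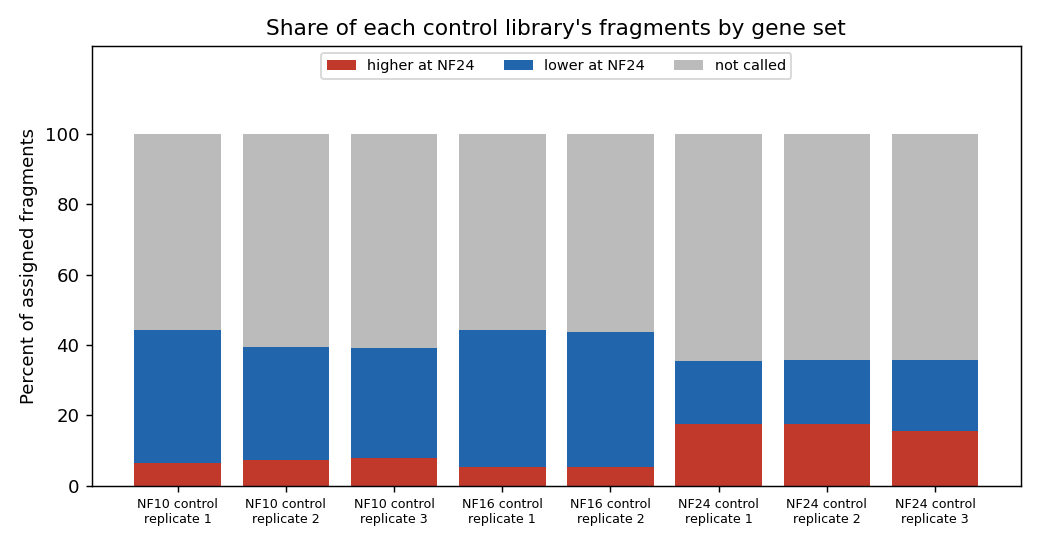
Percent of assigned fragments (y axis) in each control library that fell on genes called higher at NF24 (red), called lower (blue) or not called (grey). The blue part is 38.4% and 39.0% at NF16 and 18.0% to 20.2% at NF24, and the gastrula libraries, which did not enter the test, are shown beside them.

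Fragments were spread over more genes at the tailbud stage. The 100 most abundant genes of a library held 32.9% ± 0.324 of its fragments at NF16 (SD, n = 2) and 28.1% ± 1.14 at NF24 (SD, n = 3). The stages did not overlap, and the exact permutation test gave its lowest possible p, 0.1. At NF10 the share was lower than at both later stages, at 17.7%, 12.97% and 12.6%. Changes of mean CPM were then taken on total counts, where losses and gains sum to the same amount. The 10 genes with the largest losses carried 21.8% of all losses, and all 10 were called lower. Among all tested genes 14.4% were called lower, and among those over 100 CPM 27%. The 10 largest gains carried 9.56% of all gains, and 8 of them were called. Genes called higher made up 13.7% of all tested genes, and 255 of the 2040 tested genes over 100 CPM. The genes were ranked on the libraries that also gave the calls, so the counts of called genes among them test nothing. By the shares of all losses and gains, loss was more concentrated in few genes than gain on this scaling. The same shares were not computed with TMM factors.

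To compare detection at equal depth, the libraries were thinned to the smallest total. Genes with at least 100 reads then numbered 8083 and 7924 at NF16 and 8548, 8731 and 8379 at NF24. At least 1000 reads were left for 2564 and 2583 genes at NF16 and for 2973, 3030 and 2979 genes at NF24. Both counts were higher in each NF24 library than in each NF16 library (exact permutation p 0.1 for each, the smallest that 3 against 2 libraries allow). At least 1 read was found for 12526 genes in each NF16 library and for 12725, 13016 and 12840 genes at NF24. Before thinning, the deep NF16 replicate 2 had 13054 detected genes, within the NF24 range of 12880 to 13109.

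The NF24 libraries had not moved equally far from the neurula stage. Across genes, correlations of log2 CPM were 0.975 between the NF16 libraries and 0.954 to 0.965 among the NF24 libraries. NF24 replicate 3 correlated with the NF16 libraries at 0.925 and 0.926, and replicates 1 and 2 at 0.899 to 0.906. Of 9084 genes with at least 5 CPM, 467 differed more than 2-fold between NF24 replicates 1 and 2, against 1031 and 727 between replicate 3 and these. Between the NF16 libraries 461 did, and across the stages 2564 to 2920. The stage difference was thus larger than the spread of the replicates, and by these measures replicate 3 was the tailbud library nearest to the neurula. By the share of fragments in the 100 most abundant genes it was the farthest. That share was 26.9% in replicate 3 and 29.1% and 28.4% in NF24 replicates 1 and 2, against 32.7% and 33.2% at NF16.

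Each library was also placed on genes that had been called without it. For NF24 replicate 3, 1898 higher and 1902 lower genes were called in the other 4 libraries, and it showed a median of 0.740 and 0.814 of their change. NF24 replicate 1 showed 0.985 and 1.02, and replicate 2 showed 0.979 and 1.01. The full change was the difference between the stage means of the remaining libraries, and the genes differed between fits. For replicates 1 and 2 the NF24 mean took in replicate 3, so the shares are not on a common scale. In replicate 3, 73.6% of the higher genes lay past the midpoint between the stages, against 84.4% and 96.2% in replicates 1 and 2. For the lower genes these shares were 83.2%, 95.2% and 97.5%. Left-out NF16 libraries showed 0.910 and 0.825 of the difference for higher genes and 0.812 and 1.01 for lower genes. Replicate 3 was thus on the tailbud side for most genes but, by the median, short of the mean of NF24 replicates 1 and 2. It also had the highest outside-gene, opposite-strand and unmapped shares given above. These calls were made over the same 12710 genes. With the filter on low counts applied again to the 4 libraries left, 12531 genes were tested and 3813 called, 1912 higher and 1901 lower.

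**Figure D4:**
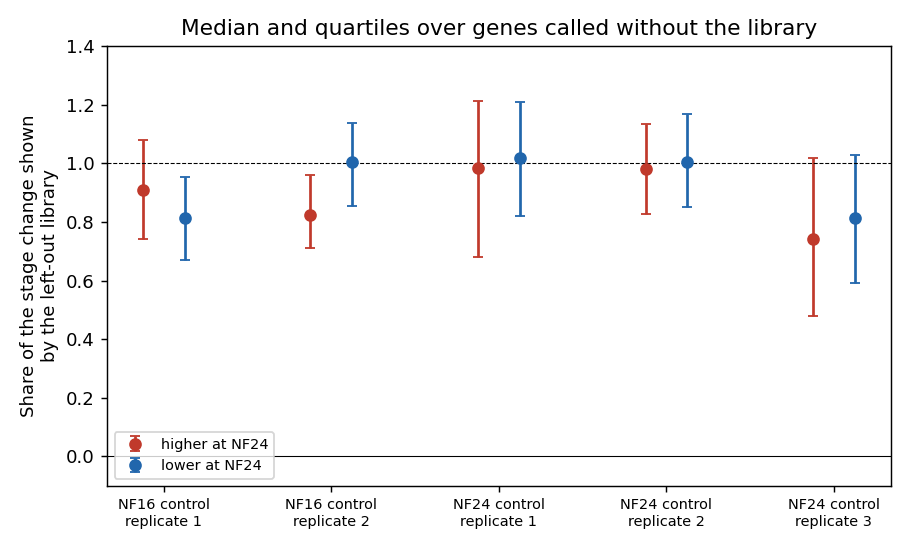
Share of the NF16 to NF24 log2 change (y axis, 1 is the change between the stage means of the remaining libraries) shown by each control library for genes called without it, as the median (point) and quartiles (bars) over genes, in red for genes higher and in blue for genes lower at NF24. The remaining libraries and the genes differ between the libraries shown, so the shares are not on a common scale. NF24 replicate 3 lies at 0.740 and 0.814, below NF24 replicates 1 and 2, which lie between 0.979 and 1.02.

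The spread among tailbud libraries was similar for higher, lower and other genes in its median, with a log2 range of 0.52, 0.48 and 0.49. Among genes of at least 5 CPM, NF24 levels spanned more than 2-fold for 20.8% of 1423 higher genes, 14.1% of 1615 lower genes and 14.99% of 6046 genes not called. At NF16 the same shares were 6.11%, 4.15% and 5.08%, over 2 instead of 3 libraries. No test of these differences was made. Replicate 3 was the lowest NF24 library for 48.3% of the higher genes and the highest for 51.1% of the lower genes. Among genes not called it was lowest for 42.5% and highest for 36.5%.

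The same step was looked at in explants that had not chosen the genes. In the 5 knockdown libraries, 91.7% of the 1742 higher genes were also higher at NF24, against 53.6% of all 12710 tested genes. A lower level at NF24 was found there for 85.7% of the 1835 lower genes and for 46.4% of all tested genes. Median log2 changes in the knockdown were 1.58 for the higher and -1.15 for the lower genes. Past the threshold in the knockdown, 815 of the higher genes were higher and 3 lower, and 853 of the lower genes were lower and 39 higher, while 27.7% of all tested genes were called there in either direction. The NF24 knockdown libraries had 51.2%, 31.3% and 40.5% of fragments unmapped and 50.5%, 42.7% and 53.0% of mapped fragments outside genes, against at most 34.0% and 45.8% in the NF24 controls. The part of these shares, and of the falling apart of the explants, in the values of the knockdown and in the interaction was not tested. In the knockdown libraries too, a technical difference between the stages cannot be told apart from stage.

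Whether the step itself differed was tested as an interaction of stage and morpholino over 10 libraries. It passed an adjusted p of 0.05 in edgeR for 510 of 12710 genes (4.01%), of which 366 had a higher log2 change in the knockdown and 144 a lower one. Of the 3577 genes called in controls, 157 were among them. This count leaned on single libraries, as it was between 9 genes, without NF16 control replicate 1, and 825 genes, without NF24 knockdown replicate 3, and leaving out any library but NF24 control replicate 3 moved it by over 1.5 times. The 4 printed genes did not pass, with interaction log2 values of -2.66 (approximate SE 2.81) for Xetrov90024588m.g, 0.78 (approximate SE 0.45) for Xetrov90028526m.g, 2.49 (approximate SE 1.00) for Xetrov90006905m.g and 0.81 (approximate SE 0.65) for Xetrov90024647m.g and adjusted p-values of 0.178 to 0.638 in edgeR, so differences of that size between the steps were not resolved.

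**Figure D5:**
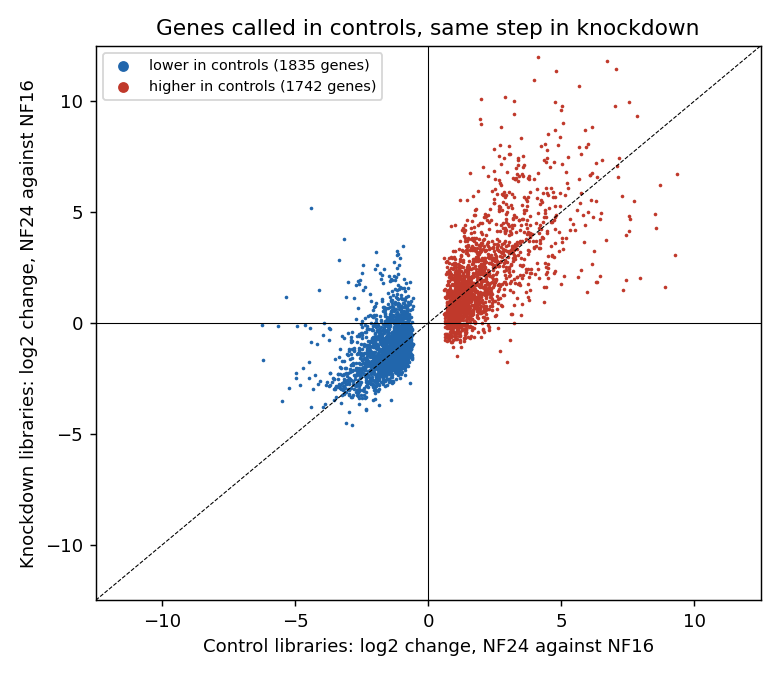
Log2 change from NF16 to NF24 in the knockdown libraries (y axis) against that in the control libraries (x axis) for the 3577 genes called in controls, each point a gene, with the dashed line marking equal change. The red genes lie above 0 on the y axis in 91.7% and the blue genes below it in 85.7%.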

How the data were processed

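Control animal caps of NF16 (2 libraries) and NF24 (3 libraries) were compared, with groups and replicate numbers taken from the sample titles. File names of the NF16 libraries carry another stage number, and several NF16 and NF24 file names carry other replicate numbers than the titles. The authors aligned paired reads of rRNA-depleted, strand-directional libraries to a Xenbase X. tropicalis assembly with STAR, which also counted them, and deposited raw counts of fragments per gene, without normalization. The submitters' processing notes name STAR 2.4.2a, and the study's methods name another version. The strand column with the larger total was used. The 4 tally lines of each file, which name no gene, were left out of library sizes. The multimapping tally is 0 in all files, so genes with near-identical copies may be undercounted. Of 14373 gene identifiers, 0 matched the RefSeq gene table at hand, which is of another assembly, so marker lists were not used.

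Genes with at least 10 counts summed over the 5 libraries were tested (12710), so genes with reads at a single stage stayed in. Counts were fitted with edgeR 4.0.16 in R 4.3.3 (quasi-likelihood test, TMM factors, Benjamini-Hochberg adjustment over all genes tested, threshold 0.05). Approximate SE is the log2 change over the square root of F. CPM of single genes used TMM factors over all 16 libraries, but the 1 CPM limit for genes with reads at 1 stage was set on total counts. CPM classes used the 5 libraries, and ranges and left-out shares used log2 of CPM plus 0.5. Single values per library were compared by exact permutation. Printed genes had an adjusted p under 0.05, at least 5 CPM and no overlap between stages. They are the largest log2 change and the largest CPM change each way. The code was tested on simulated data. DESeq2 1.42.0, other scalings and filters, the unstranded column, a replicate block and leaving out libraries were alternatives. The libraries and lists were chosen with earlier results of these data known.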

Additional observations from a re-analysis of the deposited data

How the results depend on the processing

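Of 151 recomputed values, 111 stayed the same. For a count this meant within 1.5 times, and for the share of called genes within its 95% binomial interval. For a correlation it meant within the sampling interval, and otherwise the same direction and, for a printed gene, the same call. Only the log2 changes of the 4 printed genes and the share of the 100 most abundant genes could be labelled reversed, and 0 were. The other values were compared by size, so a reversal was not looked for in them. The cause of the values that did not stay the same was not tested, and some of them came from fits with fewer libraries. Scaling by total counts gave 2739 higher and 1126 lower genes. All 6 groups in one fit gave 1883 genes, 740 higher and 1143 lower. Testing against a log2 change of 1 gave 585 genes, 288 higher and 297 lower. Leaving out each library gave 446 to 3813 genes called, 171 to 1912 higher and 275 to 1901 lower. Genes without reads at NF16 and present at NF24 numbered 0 at 2 CPM and 5 to 18 without a library, and the reverse count stayed at 0. The difference in the share of the 100 most abundant genes ranged from -5.28 to -4.16 percentage points without a library. The share of called genes with the same direction in the knockdown was 88.6%, 87.2% for genes called by DESeq2, and 85.9% to 89.5% without a knockdown library. The interaction gave 1493 genes in DESeq2 and 9 to 825 without a library. The correlation over successive identifiers was 0.0811 for genes of at least 5 CPM and 0.145 with the unstranded column.

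The titles share replicate numbers between stages. Deviations of same-numbered NF16 and NF24 controls correlated at 0.0671 and -0.0685, over 2 pairs, and those of NF16 replicate 2 and NF24 replicate 3 at 0.130. With only 2 NF16 libraries the deviations of one mirror those of the other, so these values cannot decide on a pairing. The numbers were not taken as a pairing in the main test. A replicate block gave 3992 genes, 2010 higher and 1982 lower, and 717 genes for the interaction. Calls took in 6.32% of genes under 1 CPM and 39.5% of genes over 100 CPM, so fewer differences were resolved among genes with few counts.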

Other observations

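The called genes included 3 whose stages overlapped, found after their values were seen. One, not printed by identifier, was called lower (log2 change -5.63, adjusted p 0.0237 by edgeR) although it stood at 5684 CPM in NF16 replicate 1 and at 58.0 CPM in NF16 replicate 2, against 37.5, 53.6 and 81.0 CPM at NF24. At NF10 its control levels were 15994, 1250 and 397 CPM. The other 2 were called higher, with NF24 replicate 3 at 0.755 CPM in both, between the NF16 replicates.

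Where the study places an identifier on a numbered chromosome, chromosome numbers follow identifier order, which was not checked for the other identifiers. Across 6372 pairs of tested genes with successive numbers, log2 changes from NF16 to NF24 correlated at r = 0.117, against 0.0549 at a distance of 2 numbers and -0.00591 at a distance of 50. Both genes were called in the same direction in 5.41% of the successive pairs and in 3.58% to 4.44% of pairs 2 to 100 numbers apart. This describes genes of the same libraries, which are not independent, and overlapping gene models were not excluded.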
